A study of Homo sapiens with 12 samples.

Results

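RNA levels of 10 metastasis suppressor genes, among them NME1, were read out in lung carcinoma cells with and without the TUSC3 gene. The 10 genes were chosen by symbol, from the suppressor that the study follows as a protein (NM23H1, the product of NME1) and from other genes classed as metastasis suppressors, and they are 10 of 22411 gene symbols tested on the arrays. Each gene was represented by 1 feature of the array, and where several carried its symbol the one with the highest mean was taken. The RNA came from A549, an established line of human lung adenocarcinoma, and from A549 cells in which TUSC3 had been knocked out (KO) with CRISPR/Cas9 and which had been grown from single sorted cells; the arrays' KO RNA is credited to a single named clone. Both were exposed for 16 h to DMSO, the solvent, or to 3 ug/ml tunicamycin (TM), with 3 arrays in each of the 4 groups and 12 arrays in all. Whether the 3 arrays of a group came from separate cultures was not stated in the labels or the methods. Knockout and clone cannot be told apart, and the p-values measure the spread between these arrays, which may be technical.

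A metastasis suppressor is a gene whose product lowers the spread of tumour cells to other organs without stopping growth at the primary site. The members act at different places in the cell. NME1, NME3 and NME4 are nucleoside diphosphate kinases, CD82 is a tetraspanin of the plasma membrane, BRMS1 belongs to a nuclear corepressor complex, KISS1 is secreted and processed to a peptide ligand, and PEBP1 and MAP2K4 act in kinase cascades. NDRG1 is a cytoplasmic protein whose gene is known to be induced by low oxygen and by stress of the endoplasmic reticulum (ER). TM blocks the first step of N-linked glycosylation and so causes ER stress, and TUSC3 is a subunit of the oligosaccharyltransferase that attaches the glycans.

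All values are log2 values made with RMA, in which a difference of 1 is a doubling and the median of all features was 4.77. Levels of different genes are not set against each other, since each feature has its own brightness. TUSC3 itself lay at 7.16, 7.03 and 7.10 in control and at 5.51, 5.50 and 5.57 in KO cells under DMSO, a difference of -1.57 (SE 0.07, limma adjusted p = 4.26e-08), and under TM the difference was -1.34 (SE 0.07, limma adjusted p = 9.65e-08). The 6 epithelial markers had group means between 7.33 and 11.9, and 4 of 5 blood cell markers lay below the median of all features in every group. The epithelial markers summed to between 58.3 and 58.7 in control and between 59.0 and 59.2 in KO cells under DMSO, and to between 57.5 and 57.7 and between 59.1 and 59.3 under TM. Under DMSO 2 of the 6 were called higher in KO cells, KRT19 by 0.36 and EPCAM by 0.30. Under TM 3 were called higher, KRT19 by 0.60, EPCAM by 0.54 and CDH1 by 0.53, and 1 lower, KRT7 at -0.18. Of the blood cell markers, 1 of 5 was called higher in KO cells under TM, LYZ, with means of 3.68 in control and 4.68 in KO cells that both lay below the median of all features. In RNA of a whole culture, fewer cells that express a gene and less RNA in each cell cannot be told apart. Of 6 airway and alveolar markers, with group means between 5.25 and 9.61, 1 was called between KO and control cells, the mucin gene MUC5AC, higher in KO cells by 1.24 under DMSO (SE 0.06, limma adjusted p = 6.29e-08) and by 1.98 under TM (SE 0.06, limma adjusted p = 1.78e-09). This list summed to between 35.7 and 36.1 in control and between 37.0 and 37.3 in KO cells under DMSO, and to between 35.3 and 35.7 and between 36.4 and 37.4 under TM, with no overlap of KO and control arrays. The sums include MUC5AC. The other 5 markers were not called, and the median difference of the 6 was 0.02 under DMSO and -0.07 under TM. The part of these markers in the results was not tested. One KO array under TM, replicate 3, had the lowest median over the tested genes, 5.76, where the other 11 arrays lay between 5.82 and 5.85.

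A gene was called where its limma p-value, adjusted over all 22411 genes by the Benjamini-Hochberg method, was under 0.05. Between KO and control cells under DMSO, 2 of the 10 members were called, both lower, where 12.7% of all genes were called, 6.58% higher and 6.11% lower. Under TM, 3 of 10 were called between KO and control cells, all lower, against 17.0% of all genes called, 8.99% higher and 7.97% lower. TM against DMSO gave 3 called members in control cells, 1 higher and 2 lower, where 24.8% of all genes were called, 11.2% higher and 13.6% lower. In KO cells 5 members were called, 1 higher and 4 lower, where 27.4% of all genes were called, 12.5% higher and 14.9% lower. The interaction, the TM difference in KO cells minus the TM difference in control cells, was called for 3 members, 1 higher and 2 lower, where 7.91% of all genes were called, 4.18% higher and 3.73% lower. These comparisons share arrays and are not independent of each other. The members were chosen with earlier results of these data known, so their counts are description and no independent support. The median difference of the 10 members was 0.02 between KO and control cells under DMSO and -0.12 under TM, and that of all genes was 0.01 and -0.02.

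**Figure D1:**
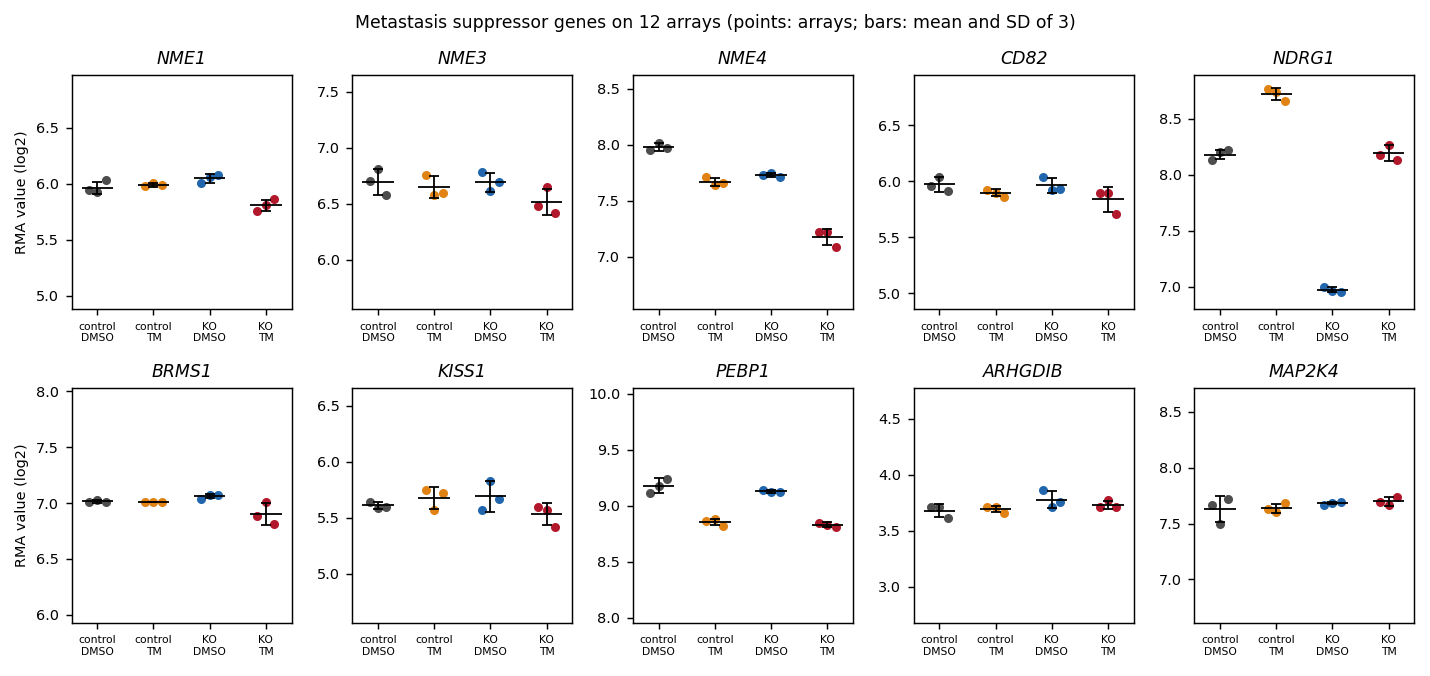
Level of each metastasis suppressor gene (RMA value, log2) on 12 arrays, in 4 groups of 3. Points are arrays, the horizontal bar is the mean and the whisker the SD; every panel spans the same range. NDRG1 has the widest spread of group means, from 6.97 in KO cells under DMSO to 8.72 in control cells under TM, and MAP2K4 stays between 7.63 and 7.70.

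NME1 encodes NM23-H1, a kinase that moves phosphate from ATP to other nucleoside diphosphates. Its RNA was lower in KO cells under TM than in any other group. The control arrays read 5.94, 5.93 and 6.03 under DMSO and 5.98, 6.01 and 5.99 under TM. The KO arrays read 6.01, 6.06 and 6.08 under DMSO and 5.76, 5.81 and 5.86 under TM. All 3 KO arrays under TM lay below the other 9 arrays, which spanned 5.93 to 6.08 without a clear order between their groups. Between KO and control cells the difference was -0.18 under TM (SE 0.04, limma adjusted p = 0.00601). Over the alternative settings it ran from -0.18 to -0.16, and the highest adjusted p, by limma or the methods' t-test, was 0.05, just inside the threshold. Under DMSO the difference was 0.08 (95% interval 0.00 to 0.17, limma adjusted p = 0.242), so that the interval reaches a rise of 0.17. In KO cells NME1 fell with TM, with a difference of -0.24 (SE 0.04, limma adjusted p = 0.000521), while the TM difference in control cells was 0.03 (95% interval -0.06 to 0.11, limma adjusted p = 0.704). The interaction was -0.27 (SE 0.05, limma adjusted p = 0.0116). With the array medians of the tested genes set equal, a setting chosen after seeing the data, the interaction was -0.25 with a limma adjusted p of 0.0531 and no longer called. In linear terms the fall with TM in KO cells was 1.18-fold.

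NME2, whose product shares most of its sequence with that of NME1, has no feature of its own on the array. A transcript cluster shared by NME2 and the NME1-NME2 read-through lay between 8.45 and 8.52 in the means of the 4 groups and was assigned to no gene. Its KO arrays read 8.46, 8.47 and 8.45 under DMSO and 8.46, 8.47 and 8.42 under TM. These overlapped, where the KO arrays of NME1 under DMSO and TM did not. Whether RNA of NME2 reaches the probes of NME1 was not tested.

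NME4 encodes the nucleoside diphosphate kinase of the mitochondrion. It was lower in KO than in control cells under both conditions and lower with TM in both kinds of cell. The control arrays read 7.95, 8.02 and 7.97 under DMSO and 7.71, 7.64 and 7.66 under TM. The KO arrays read 7.73, 7.75 and 7.71 under DMSO and 7.22, 7.22 and 7.09 under TM. Control cells under DMSO were highest and KO cells under TM lowest, with no overlap of either group with any other; the control arrays under TM and the KO arrays under DMSO met at 7.71. The difference between KO and control cells was -0.25 under DMSO (SE 0.04, limma adjusted p = 0.00108) and -0.49 under TM (SE 0.04, limma adjusted p = 4.45e-06). The TM difference was -0.31 in control cells (SE 0.04, limma adjusted p = 7.44e-05) and -0.55 in KO cells (SE 0.04, limma adjusted p = 6.02e-07). The lowest value, 7.09, was that of KO array 3, and without it the difference between KO and control cells under TM was -0.45 and the TM difference in KO cells -0.51, both still called. The interaction was -0.24 (SE 0.05, limma adjusted p = 0.0197). It was no longer called when control array 1 under DMSO, control array 1 under TM or KO array 2 under DMSO was left out, with limma adjusted p of 0.0562, 0.0564 and 0.0574.

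NME3, a nucleoside diphosphate kinase found at the mitochondrial outer membrane, was called in no comparison. Its 12 values lay between 6.42 and 6.81, and the groups overlapped. The TM difference in KO cells was -0.18 (95% interval -0.34 to -0.01, limma adjusted p = 0.125), and without KO array 2 under TM it was -0.24 with a limma adjusted p of 0.0413. Of the 4 other tested genes of the NME family, NME6 was called, higher with TM by 0.16 in control cells (SE 0.04) and by 0.11 in KO cells (SE 0.04), and the other 3 lay below the median of all features in every group. The methods' t-test, adjusted, called 0 of these 4 in either comparison. Among 13 other nucleotide kinases, limma called 2 higher and 3 lower in KO against control cells under DMSO. Of all genes, 6.58% were called higher and 6.11% lower there. The counts of the list were the same in TM-treated cells, where 8.99% of all genes were called higher and 7.97% lower. By the methods' t-test, adjusted, 2 of the list were lower in DMSO-treated KO cells and 0 higher. With TM present, this t-test called 2 in each direction. AK4, an adenylate kinase of the mitochondrial matrix, was among the lower ones by limma in both conditions, at -0.29 and -0.30 (SE 0.03 each). With TM the thymidine kinase TK1 fell by 0.73 in control and by 1.00 in KO cells on the log2 scale (SE 0.04 each), and its interaction was -0.27 (SE 0.06, limma adjusted p = 0.0157).

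**Figure D2:**
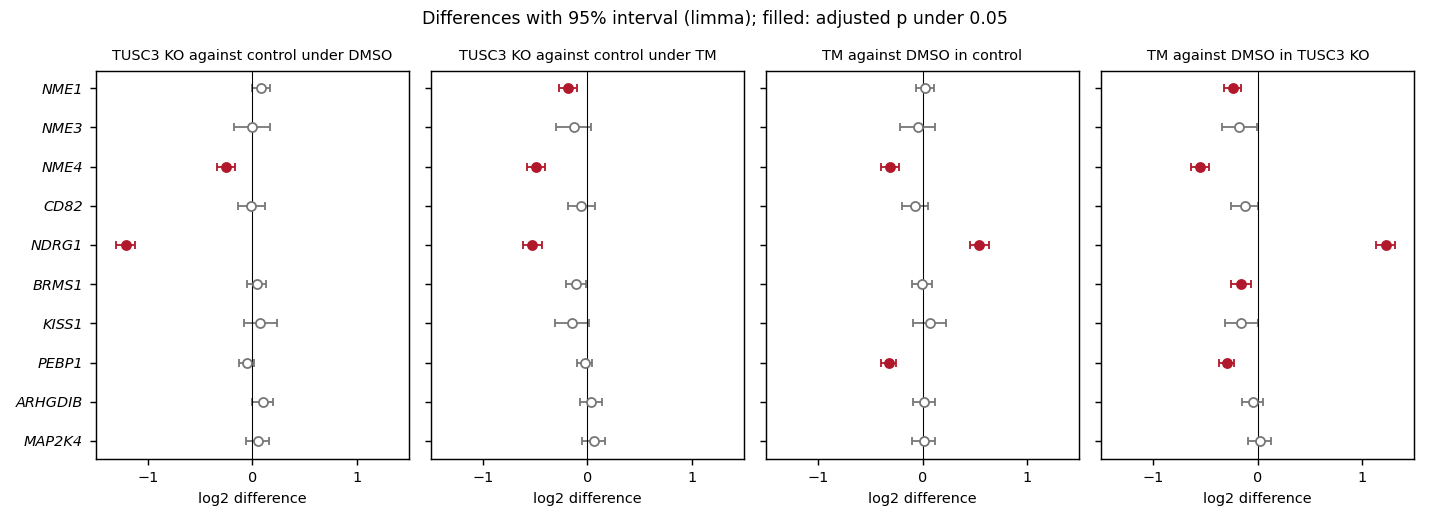
Differences of the 10 members in 4 comparisons (log2, horizontal axis) with their 95% intervals from limma. Filled red points passed an adjusted p of 0.05. NDRG1 lies at -1.21 and -0.53 in the KO comparisons and at 0.54 and 1.23 in the TM comparisons; NME1 departs from 0 where KO cells under TM enter.

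NDRG1 showed the widest range among the members. The control arrays read 8.13, 8.20 and 8.22 under DMSO and 8.77, 8.74 and 8.66 under TM. The KO arrays read 7.00, 6.96 and 6.95 under DMSO and 8.18, 8.27 and 8.13 under TM. KO cells under DMSO were lowest by more than 1 unit, control cells under TM were highest, and the KO arrays under TM overlapped the control arrays under DMSO. Between KO and control cells the difference was -1.21 under DMSO (SE 0.04, limma adjusted p = 1.04e-08), a fold of 2.32, and -0.53 under TM (SE 0.04, limma adjusted p = 4.47e-06), a fold of 1.44. NDRG1 rose with TM by 0.54 in control cells (SE 0.04, limma adjusted p = 1.48e-06) and by 1.23 in KO cells (SE 0.04, limma adjusted p = 1.96e-09). The interaction was 0.68 (SE 0.06, limma adjusted p = 5.3e-05), and it was called in each alternative setting that gave it a value, at 0.65 to 0.70, and with each array left out, at 0.64 to 0.72.

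NDRG2 and NDRG3, relatives of NDRG1, were also called lower in KO cells under DMSO by limma, where the methods' t-test, adjusted, called 0 of the family beside NDRG1; under TM limma and the t-test each called 1 lower. NDRG3 differed by -0.38 under DMSO (SE 0.05, limma adjusted p = 0.00023) and by -0.27 under TM (SE 0.05, limma adjusted p = 0.00192), and NDRG2 by -0.19 under DMSO (SE 0.06), where its limma adjusted p of 0.05 lay just inside the threshold. NDRG3 fell with TM, with differences of -0.40 in control and -0.29 in KO cells (SE 0.05 each), where NDRG1 rose. NDRG4 was called in no comparison.

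NDRG1 is a known target of the transcription factors that respond to low oxygen, and 18 other genes induced by low oxygen were read beside it. The list was chosen with earlier results of these data known, so its counts are description and no independent support. Under DMSO, 11 of the 18 were called lower in KO than in control cells and 0 higher, where 6.11% of all genes were called lower and 6.58% higher. The median of the 18 was -0.18, and that of all genes 0.01. At an unadjusted limma p under 0.05 the counts were 12 and 0, and by the methods' t-test, adjusted, 6 and 0. BNIP3L, a receptor for the removal of mitochondria, differed by -0.47 (SE 0.02), ADM, which encodes the peptide adrenomedullin, by -0.42 (SE 0.05), and P4HA1, a collagen prolyl hydroxylase subunit, by -0.39 (SE 0.05). None of these reached the size of the NDRG1 difference. Under TM the list was split, with 8 called lower and 4 higher by limma, 4 and 2 by the methods' t-test, and a median of -0.11. Over all genes, limma called 7.97% lower and 8.99% higher under TM. ADM differed by -0.42 again (SE 0.05), PDK1, which inhibits pyruvate dehydrogenase, differed by -0.33 (SE 0.04) and the hexokinase HK2 by -0.30 (SE 0.04), whereas ERO1A, an oxidase of the ER, was higher in KO cells by 0.25 (SE 0.04).

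With TM, genes of this list changed in both kinds of cell. In control cells 8 of 18 were called higher and 3 lower, where 11.2% and 13.6% of all genes were. In KO cells 10 were called higher and 2 lower, where 12.5% and 14.9% of all genes were. DDIT4, an inhibitor of mTORC1 signalling, rose by 0.81 and 0.84 (SE 0.04 each) and SLC2A1, the glucose transporter GLUT1, by 0.79 and 0.84 (SE 0.04 each) in control and in KO cells. EGLN1, an oxygen-sensing prolyl hydroxylase, moved the other way, by -0.84 and -0.43 (SE 0.02 each). In the interaction 5 of the 18 were called higher and 1 lower, where 4.18% and 3.73% of all genes were, and 12 were not called. BNIP3L had an interaction in the direction of that of NDRG1, 0.55 (SE 0.03, limma adjusted p = 4.65e-06), with a TM difference of 0.22 in control and 0.76 in KO cells. That of HK2 had the opposite sign, -0.34 (SE 0.06, limma adjusted p = 0.00342).

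**Figure D3:**
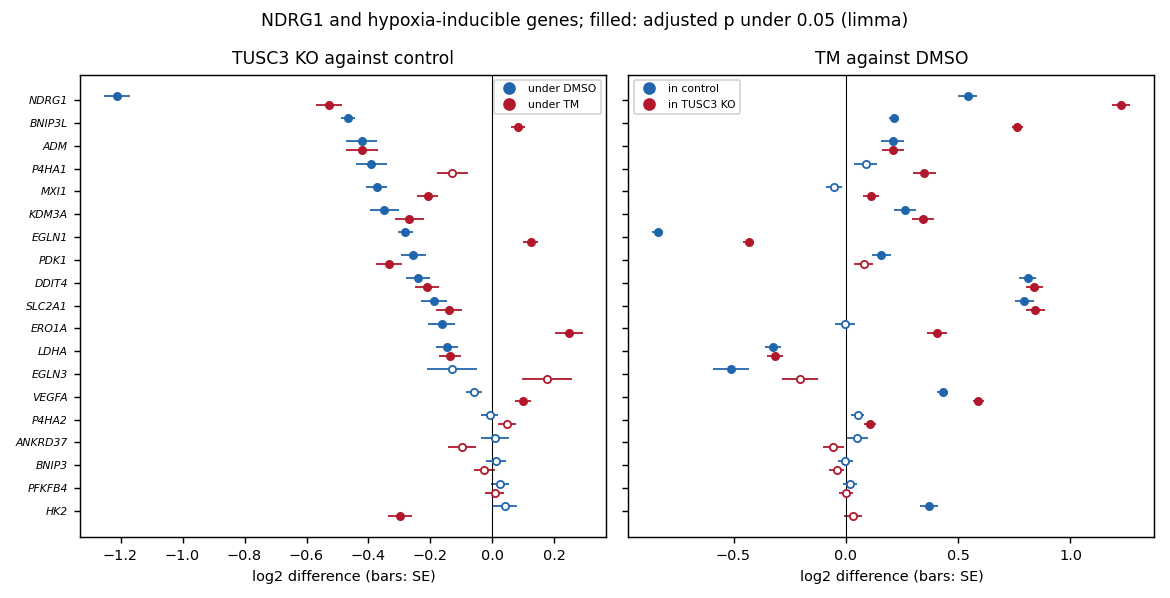
NDRG1 and 18 other genes induced by low oxygen, with the difference of KO against control cells on the left and of TM against DMSO on the right (log2, bars are SE). Filled points passed an adjusted p of 0.05 in limma. Under DMSO the 11 called genes beside NDRG1 all lie left of 0.

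PEBP1 encodes a phosphatidylethanolamine-binding protein that restrains kinase signalling. Its RNA was lower with TM in both kinds of cell. The control arrays read 9.11, 9.18 and 9.24 under DMSO and 8.86, 8.88 and 8.82 under TM. The KO arrays read 9.14, 9.12 and 9.12 under DMSO and 8.85, 8.83 and 8.81 under TM. All 6 arrays under TM lay below all 6 under DMSO, and within each condition KO and control arrays overlapped. TM differed from DMSO by -0.32 in control (SE 0.03, limma adjusted p = 1.43e-05) and by -0.30 in KO cells (SE 0.03, limma adjusted p = 2.58e-05). The interaction was 0.03 (95% interval -0.07 to 0.13), and between KO and control cells the 95% interval ran from -0.12 to 0.02 under DMSO and from -0.10 to 0.05 under TM.

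MAP2K4, the kinase that phosphorylates JNK and p38, was the steadiest member and was called in no comparison. Its group means lay between 7.63 and 7.70, and the 95% interval of its difference between KO and control cells was -0.05 to 0.16 under DMSO and -0.05 to 0.17 under TM. Among 20 other genes of the JNK and p38 cascades, 3 were called higher and 3 lower under DMSO, where 6.58% and 6.11% of all genes were. Under TM 5 were called higher and 2 lower, where 8.99% and 7.97% of all genes were, and the methods' t-test called 3 and 0. MAP3K1, an upstream kinase, was higher in KO cells by 0.44 under DMSO and by 0.59 under TM (SE 0.05 each). DUSP1, a phosphatase that inactivates these kinases, was lower, with differences of -0.68 and -0.23 (SE 0.04 each). In the same list DUSP10 was higher by 0.30 and 0.37 (SE 0.05 each). MAP3K20 was lower, at -0.31 and -0.14 (SE 0.04 each).

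BRMS1, a subunit of the SIN3 and histone deacetylase corepressor, was called once, with TM in KO cells. The control arrays read 7.01, 7.03 and 7.01 under DMSO and 7.01 on each of the 3 arrays under TM. The KO arrays read 7.04, 7.07 and 7.07 under DMSO and 6.88, 7.01 and 6.81 under TM. The 3 control arrays under TM held the same deposited value to the last digit, as did 1.81% of the tested genes in that group, so that their SD of 0 says nothing of the precision. The TM difference in KO cells was -0.16 (SE 0.04, limma adjusted p = 0.0146). It was not called with the KO arrays alone in the fit (limma adjusted p = 0.0835), by the methods' t-test (adjusted p = 0.186), or without KO array 2 under DMSO (-0.15, limma adjusted p = 0.0522), and without KO array 3 under TM it was -0.11. Of the 10 tested genes next to BRMS1 on its chromosome, 4 were called lower in the same comparison, where 14.9% of all genes were. The median of the 10 was -0.15. Without KO array 2 under TM, BRMS1 was also called between KO and control cells under TM (-0.16, limma adjusted p = 0.0042) and in the interaction (-0.21, limma adjusted p = 0.0117). Of 14 other members of the corepressor complex, 9 were called lower and 1 higher with TM in control cells, where 13.6% and 11.2% of all genes were. In KO cells 5 were called lower and 1 higher, where 14.9% and 12.5% of all genes were. RBBP7, a histone-binding subunit, differed by -0.38 and -0.36 (SE 0.03 each) and HDAC1, a deacetylase, by -0.34 and -0.20 (SE 0.04 each).

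CD82, KISS1 and ARHGDIB were called in no comparison. CD82 lay between 5.71 and 6.04 on the 12 arrays, and the nearest it came to a difference was with TM in KO cells, at -0.12 (95% interval -0.25 to 0.00, limma adjusted p = 0.15). Among 21 other tetraspanins, 1 was called higher and 2 lower under DMSO in KO against control cells, where 6.58% and 6.11% of all genes were. Under TM 8 were called higher and 4 lower, where 8.99% and 7.97% of all genes were, and the methods' t-test called 5 and 1. TSPAN7 was the lowest, at -0.72 under DMSO and -1.03 under TM (SE 0.06 each), TSPAN13 was higher by 0.24 and 0.73 (SE 0.04 each), and CD9, a partner of integrins, was higher by 0.38 under TM (SE 0.03). KISS1 lay between 5.42 and 5.83, and its interaction was -0.22 (95% interval -0.45 to 0.00, limma adjusted p = 0.261). Of 7 other genes of the kisspeptin axis, 2 were called higher in KO than in control cells under DMSO by limma, where 6.58% of all genes were. Between KO and control cells under TM 0 were called, where 17.0% of all genes were. Under TM 1 had an unadjusted limma p under 0.05, and the methods' t-test called 0 in either condition. ARHGDIB, which is expressed above all in blood cells, lay between 3.61 and 3.86, below the median of all features in every group, and no fold is given for it.

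NME4 and NDRG1 were the members whose group means spanned over 0.5, and for each the tested genes with the most similar course over the 12 arrays were sought, as the smallest root mean square distance after each gene was centred on its mean. For NME4 these were UBE2S, a ubiquitin-conjugating enzyme, at 0.06, KREMEN1, a receptor for Dickkopf proteins, at 0.06, and LINC02870, a long non-coding RNA, at 0.07. The NME4 values themselves had a root mean square of 0.29 around their mean. For NDRG1 they were PTPRD, a receptor tyrosine phosphatase, at 0.17, LIMCH1 at 0.20 and CYP4F11 at 0.20, where NDRG1 itself had 0.64. The PTPRD means were 5.73 and 6.39 in control cells under DMSO and TM and 4.77 and 5.61 in KO cells.

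Genes next to the called members were read in the same way, 5 tested genes on each side. Over all genes, limma called 12.7% between KO and control cells under DMSO and 17.0% under TM. With TM it called 24.8% in control and 27.4% in KO cells, and 7.91% in the interaction. Around NME4, on chromosome 16, 0 of 10 neighbours were called by limma in any of the 5 comparisons, and their differences between KO and control cells ran from -0.06 to 0.10 under DMSO and from -0.13 to -0.03 under TM. In these 2 comparisons 0 of the 10 had an unadjusted limma p under 0.05 and the methods' t-test called 0; with TM, 1 in control and 2 in KO cells had an unadjusted p under 0.05. Around NDRG1 1 of 10 was called under DMSO, higher in KO cells by 0.35, and the neighbours' median was 0.03, with 6 of 10 below the median of all features in every group. Around NME1, on chromosome 17, 0 of 10 were called by limma between KO and control cells under DMSO and 1, higher, under TM, with a median of -0.02. Of these neighbours, 4 of 10 lay below the median of all features in every group. With TM, 2 of 10 around NME1 were called lower in control and 2 in KO cells, and the lowest in KO cells was -0.41. Around NDRG1 2 were called higher with TM in control cells, and 1 higher and 1 lower in KO cells. By limma, 0 neighbours of these 3 genes were called lower in KO than in control cells under either condition. In that direction 0 had an unadjusted p under 0.05. Of all genes, 6.11% were called lower in KO cells under DMSO and 7.97% under TM.

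**Figure D4:**
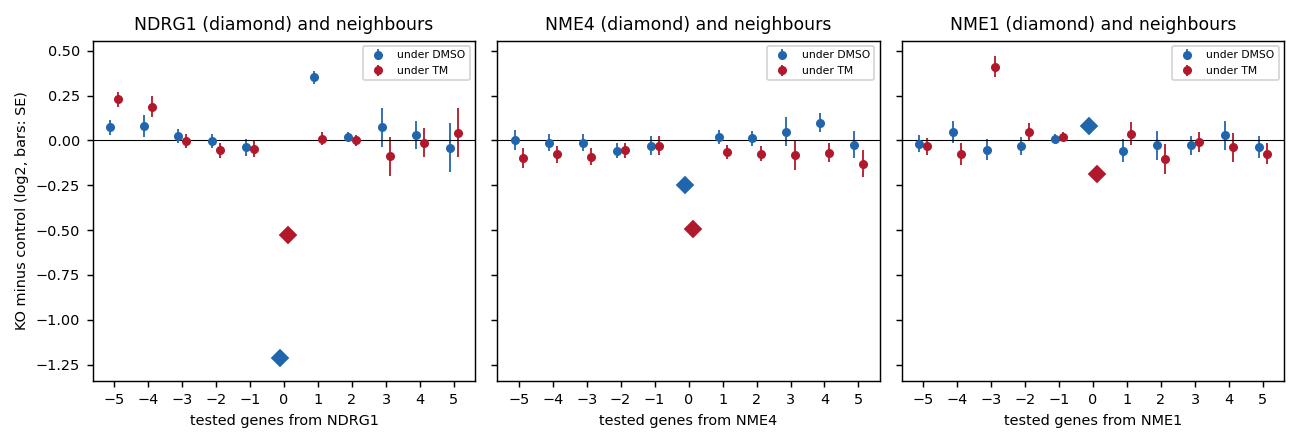
Difference of KO against control cells (log2, bars are SE) for NDRG1, NME4 and NME1 (diamonds) and the 5 tested genes on each side in chromosome order (circles), under DMSO in blue and under TM in red. NDRG1 and NME4 lie below all of their neighbours in both conditions.

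NME1, NME4 and PEBP1 were lower with TM in KO cells, and the promoter sequence of each was searched for 5 motifs on both strands. RefSeq windows (GRCh38.p14) from 250 bases before to 50 after the gene start were matched for 9 of the 10 members, in 11 windows, and NDRG1 was not matched. CCAAT, the letters bound by the factor NF-Y, was in 4 of the 11 windows, those of NME1, NME4, PEBP1 and ARHGDIB, and in 34.6% of all 35116 windows. At this rate the motif does not set the members apart. The 30 bases around it are shown for NME1, NME4 and PEBP1 as description only, with the motif or its reverse complement ATTGG in capitals.
NME1 (chr17:51153344-51153373, plus strand): cctctcgggaagCCAATttgctcgcgaacg
NME4 (chr16:397046-397075, plus strand): tttttaacagaaATTGGcgttgaacatttc
PEBP1 (chr12:118136002-118136031, plus strand): tgccagcttcggCCAATcagaggccaggga
The motif began 203 bases before the gene start in NME1, 141 in NME4 and 110 in PEBP1. BRMS1, which was also called lower with TM in KO cells, held no CCAAT in its window. ACGTG, the core of the element bound by hypoxia-inducible factors, was in windows of NME1 and PEBP1 and in 21.4% of all windows; of its 3 matches in NME1 over both strands, 2 lay within an E-box, CACGTG, which 7.26% of all windows held, and 1 lay apart from it. TGATGCAAT, a form of the site of CHOP with ATF4, was in 0.236% of all windows, the ER stress element in 0.0769%, and neither was in the window of a member. These matches describe letters and were not tested against the levels.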

How the data were processed

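RNA of A549 control and TUSC3 KO cells was hybridised to GeneChip Human Transcriptome Array 2.0 arrays, 1 array per sample. Per the labels, the authors deposited log2 values made by RMA: background is corrected, quantiles are set equal between arrays, and probes are summarised for each transcript cluster. For RMA, the program, its version and the annotation build were not given in the sources used here. The platform annotation gave 1 symbol for 23781 features, several for 1543 and none for 45199, among 67528 transcript clusters and 2995 further features, and 306 symbols were updated. All 22411 symbols went into 1 limma model (version 3.58.1, R 4.3.3) that held a variance trend, the spread was estimated over all 12 arrays, and p-values were adjusted over all 22411. Arrays of 1 group correlated at 0.994 to 0.997, and at most 4.77% of values were identical between any 2 arrays. The number of arrays limits the precision: a permutation test of 3 against 3 arrays cannot go below p = 0.1, so none was run.

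A difference against a group whose mean lay below the median of all features is a lower bound. All 10 members are named, and of each further list up to 3 genes per direction and comparison, by size. The members and lists were chosen with earlier results of these data known. Counts of list genes leave out the members, and 2 lists are not reported here. Scripts used Python 3.11.15 with pandas 2.3.3, numpy 2.4.6, scipy 1.17.1 and matplotlib 3.10.9, and the fit was tested on simulated data. Alternatives were no variance trend, a further quantile normalization, a fit of only the compared groups, a block for the replicate number, the mean of several features, dim genes left out, the methods' t-test, each array left out, and, chosen after seeing the data, equal array medians. A planned comparison of protein sequences was not run.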

Additional observations from a re-analysis of the deposited data

Results flagged for a closer look

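The response to TM differed between KO and control cells for 3 of the 10 members in limma's test of the interaction. For NDRG1 the rise with TM was larger in KO cells by 0.68 on the log2 scale, and all 3 KO arrays and all 3 control arrays rose above their DMSO groups. For NME1 the interaction was -0.27, with all 3 KO arrays under TM below the KO arrays under DMSO and overlapping values in control cells. For NME4 the interaction was -0.24, with TM arrays below DMSO arrays in both kinds of cell.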

How the results depend on the processing

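The 16 called differences of members kept their direction in all 122 values from settings other than leaving out an array, and 119 of these passed the threshold; the other 3 are those of BRMS1 with TM in KO cells (the compared groups alone and the methods' t-test, limma and t-test adjusted p of 0.0835 and 0.186) and the NME1 interaction with equal array medians (-0.2492). With 1 array left out, 188 of 192 values passed. For NME1 these ranged from 0.0648 to 0.1131 between KO and control cells under DMSO, from -0.2088 to -0.1596 under TM, from 0.0077 to 0.0561 with TM in control cells, from -0.2658 to -0.2166 in KO cells, and from -0.2975 to -0.2423 in the interaction. The members called then numbered 2, 3 to 4, 3, 4 to 6 and 2 to 4 in the same order. Of the values not called, 6 changed sign: with quantile normalization once more, BRMS1 and ARHGDIB with TM in control cells (0.0134 and -0.0263) and the MAP2K4 interaction (-0.0047); with equal array medians, NME3 and CD82 under DMSO (0.0072 and 0.0015) and PEBP1 under TM (0.003). With 1 array left out, 20 did. Between KO and control cells these ranges were -0.0617 to 0.0564 (NME3), -0.0457 to 0.0267 (CD82) and -0.0109 to 0.1005 (MAP2K4) under DMSO, and -0.0908 to 0.0074 (CD82) under TM. With TM they were -0.1081 to 0.01 (NME3), -0.0104 to 0.0 (BRMS1), -0.019 to 0.0319 (ARHGDIB) and -0.0553 to 0.0561 (MAP2K4) in control cells and -0.0039 to 0.0331 (MAP2K4) in KO cells, and in the interaction -0.0848 to 0.0151 (CD82), -0.0064 to 0.06 (PEBP1) and -0.0381 to 0.0733 (MAP2K4). The methods' t-test, adjusted, called 1424 genes between KO and control cells under DMSO where limma called 2844, 1559 under TM where limma called 3801, 3876 with TM in control cells where limma called 5564, and 3730 with TM in KO cells where limma called 6144; the cause was not tested. Whether replicate numbers pair the arrays is not stated in the labels. Of 18 same-number pairs, 9 had deviations correlated above 0.1 (from -0.098 to 0.386), and 7 of 12 arrays correlated best with their own number. A batch shared by arrays of the same number was not tested. With the replicate number as a block, 3286, 4437, 6155, 6684 and 2257 genes were called, against 2844, 3801, 5564, 6144 and 1773 without it. The members called stayed at 2, 3, 3, 5 and 3. Leaving out dim genes removed ARHGDIB. With 3 arrays per group, SEs of the members' differences between 2 groups ran from 0.03 to 0.08.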

Other observations

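Beyond the 10 members, 28 other genes classed as metastasis suppressors were read on the same arrays. Between KO and control cells, 5 were called higher and 7 lower under DMSO, where 6.58% and 6.11% of all genes were. Under TM 7 were called higher and 4 lower, where 8.99% and 7.97% of all genes were. The median of the 28 was 0.00 in both conditions. By the methods' t-test, adjusted, the counts were 5 and 5 under DMSO and 6 and 3 under TM. This list was chosen with earlier results of these data known, so its counts are description. PTPRD was lower in KO cells by at least 0.96 on the log2 scale under DMSO, where its KO mean of 4.77 lay just below the median of all features, and differed by -0.77 under TM (SE 0.05 each). AKAP12, a scaffold for protein kinase A, differed by -0.48 under DMSO (SE 0.03), and CD44, the hyaluronan receptor, by 0.38 (SE 0.03). TXNIP, an inhibitor of thioredoxin, was called higher in KO cells under TM, with means of 5.94 in control and 7.44 in KO cells, and CDH1, which encodes E-cadherin, was higher by 0.53 (SE 0.02). With TM, TXNIP rose by at least 1.58 in control and at least 2.97 in KO cells, since its means under DMSO lay below the median of all features. CD44 fell with TM by 0.88 in control and by 1.02 in KO cells on the log2 scale (SE 0.03 each).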
